A study of Rattus norvegicus with 6 samples.

Results

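The renal cortex of vehicle-treated rats was described from 3 of the 6 animals of a study of p-nitroanisole, with 1 array per animal. These 3 were male Sprague-Dawley rats, bought at 5 weeks of age, that were given corn oil for 4 weeks. The arrays were chosen by their treatment label alone, and the 3 arrays of p-nitroanisole animals were not used here. Every animal received corn oil, so the values describe cortex under corn oil and not cortex without any dosing. Neither the dosing route nor the hour of necropsy was stated in the sources used here.

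The renal cortex holds the glomeruli, where blood is filtered, and the convoluted tubules that reclaim most of the filtrate. The proximal tubule makes up most of its mass: it reabsorbs sodium, phosphate, glucose, amino acids and filtered protein, secretes organic anions and cations, makes glucose and depends on mitochondrial respiration. The thick ascending limb, distal convoluted tubule and collecting duct then adjust salt, calcium, acid and water, while capillaries, fibroblasts and resident macrophages lie between the tubules.

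Each array measured Cy3-labelled cRNA made from total RNA on 61537 non-control probes of a 1-colour Agilent rat design. A level below is the background-subtracted processed signal of a probe divided by the 75th percentile of its own array, called the scaled signal, so that 1 is the 75th percentile. Where a gene had several probes, the brightest stood for it. Medians and ranks use the geometric mean of the 3 animals. A gene was called detected when a probe was well above background on all 3 arrays. Sets of 3 values run in the order of vehicle replicates 1, 2 and 3. Brightness depends on the probe as well as on the amount of transcript. Among 6263 genes with at least 2 detected probes, the brightest exceeded the next by a median of 2.91-fold, and by 10-fold or more in 1165 genes. Ranks and levels of different genes are therefore orders of probe brightness and not of transcript number. Second probes are given below for some genes only. With 1 group of 3 animals there was no comparison between conditions, and no p-value is given. The spread between animals is the error throughout, and the number of arrays limits its precision. The 3 arrays lay side by side in 1 row of 1 slide, so animal and slide position cannot be told apart.

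The 3 arrays were alike in brightness and detection. The 75th percentile of the processed signal was 1022, 942 and 978, no spot was saturated, and 68.5% to 69.2% of probes were well above background on each array. In all, 40807 of the 61537 probes, 66.3%, were well above background on all 3. Of the 15645 genes that could be named, 12122, or 77.5%, were detected, 637 had a probe above background on only 1 or 2 arrays, and 2886 on none. Counts of detected genes in the lists below are to be read against this 77.5%. Between pairs of animals the median gene differed by 1.07-fold to 1.08-fold. Pearson's r of the log2 levels across genes, which are not independent replicates, was between 0.994 and 0.995.

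Signal was concentrated in few genes. The 10 brightest named genes held 4.18% ± 0.036 (SD, n = 3 animals) of the summed signal of all detected named genes. The 100 brightest held 24.4% ± 0.15, and the 1000 brightest held 70.8% ± 0.26. Of the 100 brightest, 18 were on the 3 lists of proximal tubule genes, 7 on the list of oxidative phosphorylation, 6 on that of ribosomal proteins, 4 on that of antioxidant enzymes, and 2 each on those of the thick ascending limb, the red cells, the lysosome and the glucocorticoid targets. A gene can be on more than 1 list. These counts cover listed genes only, and 62 of the 100 brightest probes had no gene name here. Rn45s, the ribosomal RNA precursor, was among the 100 with 249, 284 and 270, and is named after its values were seen.

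The brightest named gene was Ftl1, the light chain of the iron store ferritin, at 540, 592 and 564. It ranked 1 in each animal, and its lowest value exceeded the highest value of every other named gene. Fth1, the ferritin heavy chain, gave 398, 416 and 428. Second in mean was Miox, which opens the breakdown of myo-inositol in the proximal tubule, at 496, 521 and 476. Fbp1, fructose-1,6-bisphosphatase of the glucose-making pathway, came next at 480, 494 and 488. Atp5f1a, the alpha subunit of mitochondrial ATP synthase, gave 472, 503 and 463. The values of Miox, Fbp1 and Atp5f1a overlapped between animals, and their order is not resolved.

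**Figure D1:**
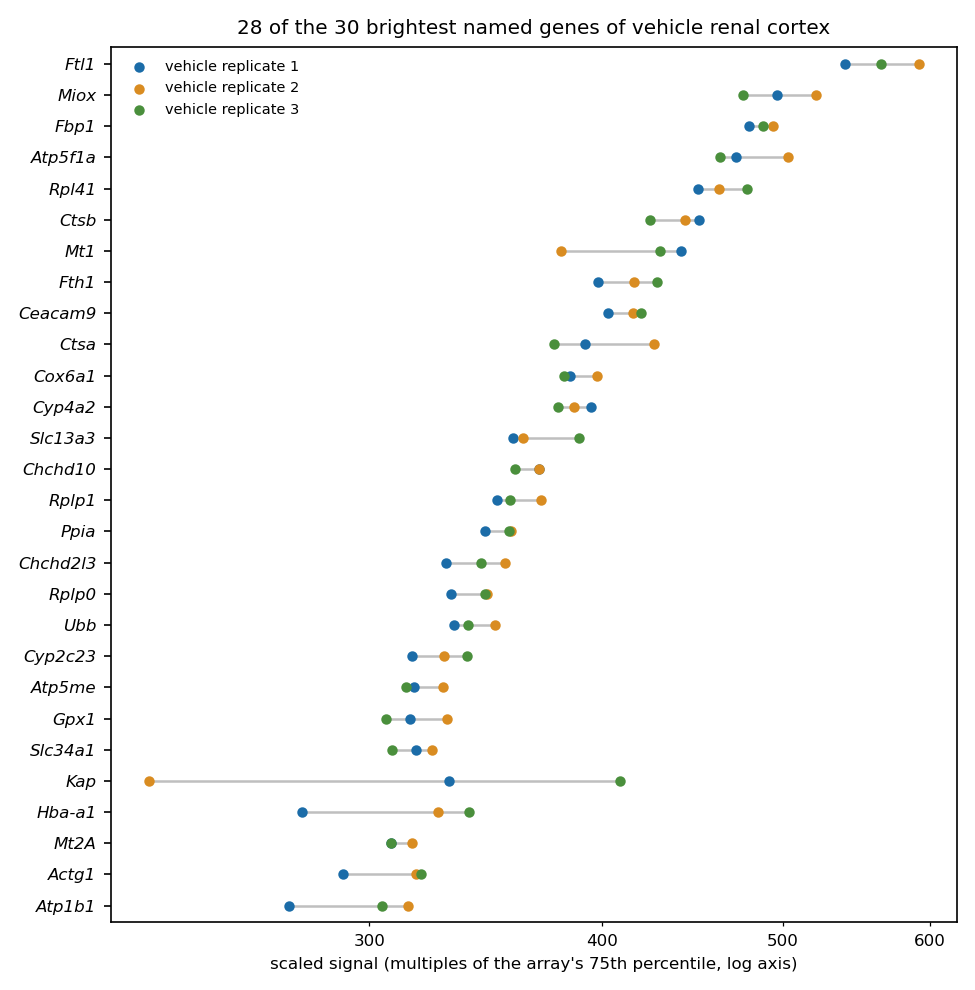
Scaled signal (multiples of the 75th percentile of the array, log axis) of 28 of the 30 brightest named genes, 1 point per vehicle animal and a line from the lowest to the highest animal. Ftl1 leads at 540 to 592, most genes keep the 3 animals close together, and Kap spans 229 to 409.

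Among the 30 brightest, 7 were on the proximal tubule lists, Miox and Fbp1 among them. Cyp4a2, a fatty acid hydroxylase, gave 395, 386 and 379. Slc13a3, the basolateral dicarboxylate carrier, gave 358, 363 and 389. Cyp2c23, an arachidonic acid epoxygenase of rat kidney, gave 316, 329 and 338. Slc34a1, the main phosphate carrier of the brush border, gave 318, 324 and 309. In each of the 6 named here the highest animal exceeded the lowest by no more than 1.09-fold, from 1.03-fold in Fbp1 to 1.09-fold in Miox.

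Lysosomal, metal-binding and peroxide-removing genes stood beside them. Ctsb, the protease cathepsin B, gave 451, 443 and 424. Ctsa, cathepsin A, gave 392, 427 and 377. The metallothionein Mt1, which binds zinc and copper, gave 441, 380 and 430, lowest in replicate 2. Its relative Mt2A gave 308, 316 and 308. Gpx1, a glutathione peroxidase, reached 315, 330 and 306. Ceacam9, a member of the carcinoembryonic antigen family, gave 403, 416 and 420 on its brightest probe. Of its 2 probes only 1 was detected. Others of the 30 were genes that most cells use (Rpl41, Rplp1, Rplp0, Ppia, Ubb, Actg1), mitochondrial genes (Cox6a1, Chchd10, Chchd2l3, Atp5me), the sodium pump subunit Atp1b1, the globin Hba-a1, and Kap, with means between 297 and 464.

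Kap, the kidney androgen-regulated protein of the proximal tubule, was the most variable of the 100 brightest. It gave 331, 229 and 409, a 1.79-fold range that took its rank from 10 in replicate 3 to 56 in replicate 2. A second, dimmer probe for Kap gave 35.0, 19.7 and 48.2, with the same highest and lowest animals. None of the 100 brightest was 2-fold apart between animals, 7 were at least 1.25-fold apart, and their median was 1.07-fold.

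The stretches just before the starts of 4 of these genes are shown because they belong to bright tubule genes that differ in segment and in spread: Miox, Slc34a1 and Kap of the proximal tubule and Umod of the thick ascending limb. Each holds the 250 bases that precede the start of the gene, 5′ to 3′ on the strand of the gene, from RefSeq on build GRCr8. Capitals mark GTTAAT, the core of the sequence that the factor HNF1 recognises, searched on both strands (ATTAAC on the other), and TATAAA, searched on the strand of the gene. The motifs share no letters in these stretches.
Miox, chr7:122284410-122284659, plus strand: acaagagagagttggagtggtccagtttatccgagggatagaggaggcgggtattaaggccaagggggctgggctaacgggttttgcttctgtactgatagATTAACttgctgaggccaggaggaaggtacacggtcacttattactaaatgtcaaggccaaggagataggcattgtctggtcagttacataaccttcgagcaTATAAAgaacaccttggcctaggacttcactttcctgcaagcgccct
Slc34a1, chr17:9238984-9239233, minus strand: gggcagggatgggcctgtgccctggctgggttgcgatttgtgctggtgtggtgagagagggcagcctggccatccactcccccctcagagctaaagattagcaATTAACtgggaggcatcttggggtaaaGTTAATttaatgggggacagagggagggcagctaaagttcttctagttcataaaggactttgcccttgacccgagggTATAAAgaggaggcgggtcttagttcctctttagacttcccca
Kap, chr4:168409033-168409282, minus strand: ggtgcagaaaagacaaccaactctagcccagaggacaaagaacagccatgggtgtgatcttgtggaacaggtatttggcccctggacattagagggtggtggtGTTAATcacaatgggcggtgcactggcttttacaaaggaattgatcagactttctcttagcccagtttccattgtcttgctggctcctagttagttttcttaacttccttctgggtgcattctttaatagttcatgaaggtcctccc
Umod, chr1:183261017-183261266, minus strand: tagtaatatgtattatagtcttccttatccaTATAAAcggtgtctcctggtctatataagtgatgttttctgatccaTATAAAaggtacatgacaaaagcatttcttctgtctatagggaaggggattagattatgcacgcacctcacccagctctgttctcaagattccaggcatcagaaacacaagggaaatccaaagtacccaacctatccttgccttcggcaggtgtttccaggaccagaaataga

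GTTAAT occurred in 1 place in Miox, in 2 places in Slc34a1, in 1 place in Kap and not in Umod. The last TATAAA began 47 bases before the start in Miox and 43 bases before it in Slc34a1. It was not in the Kap stretch, and in Umod it began 173 bases before the start. Over the table, 1775 of 27457 promoters, 6.46%, held GTTAAT on either strand, and 461 of the 9911 matched promoters of detected genes did. Of the promoters that could be matched, 10 of 60 of the proximal tubule lists held it, and 9 of 82 of the 100 brightest genes. It was in 1 of 11 promoters of thick limb genes, 0 of 14 of podocyte genes and 0 of 10 of endothelial genes. TATAAA was in 8.38% of all promoters, in 17 of 82 of the brightest genes and in 6 of 60 of the proximal tubule genes. These are matches of letters, not sites shown to be bound.

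All 70 genes of the proximal tubule lists that were on the array were detected, against 77.5% of all named genes. Their median scaled signal was 33.3, against 1.13 over all detected named genes, and together they held 6.09% ± 0.068 (SD, n = 3) of the summed signal. The 18 genes of the early segment, which reclaims most of the filtered load, had a median of 34.8, and no mean lay below the 75th percentile. Slc5a2, the glucose carrier SGLT2, gave 190, 182 and 185. Lrp2, megalin, the receptor for filtered protein, gave 91.5, 78.1 and 85.1. The widest of the list was Slc22a12, the urate carrier, at 20.5, 13.5 and 13.4, highest in replicate 1. Slc9a3, the sodium-proton exchanger, was the dimmest of the list at 1.33, 1.09 and 1.23, and is named after its values were seen.

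The proximal tubule enzymes had the highest median of the cell lists, 66.3 over 32 genes, and 12 of them were at 100 or more. Beside those above, Pck1, the first committed enzyme of glucose making, gave 239, 255 and 230. At least 2-fold apart between animals were 3 of the 32, against 3.13% of all detected named genes (379 of 12117). Mme, the peptidase neprilysin of the brush border, gave 1.62, 2.66 and 5.67, a 3.51-fold range. Cyp24a1, which inactivates vitamin D hormone, gave 1.89, 3.91 and 2.25. Pipox, a peroxisomal oxidase, gave 0.317, 0.347 and 0.811. The last 2 are named because they complete that count.

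The secretory and late segments were split between steady and variable carriers. Slc22a6, the organic anion carrier OAT1, gave 275, 276 and 278. Slc22a8, OAT3, gave 225, 232 and 219. Acy3, an aminoacylase that acts on mercapturates, gave 286, 245 and 256. Slc3a1, which carries cystine with its partner Slc7a9, gave 171, 177 and 224, highest in replicate 3. Against these bright genes, 4 of the 20 of the list were at least 2-fold apart, against 3.13% of all detected named genes. Slc7a13, an acidic amino acid carrier of the last proximal segment, gave 3.56, 9.30 and 28.3, a 7.97-fold range. On its second probe the values were 0.458, 1.28 and 3.92, an 8.58-fold range. Slco1a1, an organic anion transporting polypeptide, gave 0.248, 0.663 and 2.18, an 8.78-fold range. Slc22a7, the organic anion carrier OAT2, gave 0.0406, 0.097 and 0.219. Slco4c1, a basolateral carrier of the same family as Slco1a1, gave 0.0201, 0.0365 and 0.0659. Slc22a7 and Slco4c1 are named to complete the count. In each of the 4, replicate 1 was lowest and replicate 3 was highest. Over the list, replicate 1 was the lowest animal in 10 of the 20 genes, against 31.8% of all detected genes, and replicate 3 the highest in 9, against 35.2%. Replicate 1 was also the highest in 8 of the 20, against 34.1%, and replicate 3 the lowest in 6, against 33.1%. In the early segment list replicate 1 was the highest in 11 of 18 genes and replicate 3 the lowest in 12. The order of the 4 variable carriers was therefore not that of the proximal tubule lists as a whole.

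Genes of ammonia handling and acid-base balance were all detected, 16 of 16, with a median of 16.9 and no gene 2-fold apart. Glud1, glutamate dehydrogenase, gave 102, 95.2 and 100.4. Slc4a4, the basolateral bicarbonate exit of the proximal tubule, gave 45.5, 42.4 and 40.3. Car4, a membrane carbonic anhydrase, gave 42.0, 37.3 and 43.4. Car15, another carbonic anhydrase, was the widest at 12.9, 20.3 and 14.6, highest in replicate 2.

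Genes of the lysosome and of protein uptake were detected in 20 of 20, with a median of 26.3. Cltrn, collectrin, which holds amino acid carriers in the brush border, gave 181, 207 and 168. Ctsh, cathepsin H, gave 129, 146 and 119. Lgmn, the protease legumain, gave 86.4, 109 and 86.6. Replicate 2 was the highest animal in 15 of these 20 genes, against 30.7% of all detected genes.

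Mitochondrial and ribosomal genes were both bright and steady. The 27 genes of oxidative phosphorylation had a median of 107.3 and a median range between animals of 1.06-fold. Cox8a, a subunit of cytochrome oxidase, gave 252, 265 and 263. Cox4i1, of the same complex, gave 227, 226 and 223. The 29 ribosomal protein genes had a median of 119 and a median range of 1.04-fold, the smallest of the lists. Rps2 gave 210, 217 and 213. Rps6 gave 194, 202 and 209. No gene of either list was 2-fold apart. Uqcrq, a subunit of complex III, stood apart in level at 0.773, 0.878 and 0.623, while every other gene of oxidative phosphorylation was above 27 in each animal.

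Antioxidant genes were detected in 21 of 22, with a median of 33.9. Gpx3, the glutathione peroxidase that the kidney secretes into plasma, gave 290, 298 and 261. Sod1, the cytosolic superoxide dismutase, gave 222, 217 and 221. Gsta1, a glutathione transferase whose probes can bind other Gsta members, gave 207, 206 and 189. At least 2-fold apart were 2 of the 21, against 3.13% of all detected named genes. Gclc, the catalytic subunit of glutathione synthesis, gave 15.6, 26.3 and 64.8. The second probe for Gclc gave 0.553, 1.04 and 2.66, in the same order of animals. Gstm1, named to complete the count, gave 1.89, 4.96 and 1.68 and was highest in replicate 2.

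The thick ascending limb was present with all 13 of its genes and a median of 5.72. Umod, uromodulin, the most abundant protein of normal urine, ranked 31 at 247, 270 and 358. Ppp1r1a, a protein phosphatase inhibitor, gave 53.7, 63.0 and 76.8. Egf, epidermal growth factor, gave 30.3, 39.6 and 35.0. Replicate 1 was the lowest animal in 11 of the 13 genes and the highest in none, against 31.8% and 34.1% of all detected genes. The widest was Cldn16, a paracellular magnesium pore, at 0.302, 0.373 and 0.495, and no gene was 2-fold apart.

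Of the distal convoluted tubule list, 8 of 9 genes were detected, 88.9%, against 77.5% of all named genes. Fxyd2, a regulator of the sodium pump, gave 145, 161 and 157, which bulk cortex cannot assign to this segment alone. Slc12a3, the thiazide-sensitive carrier, gave 19.6, 22.0 and 19.9. Kl, the co-receptor Klotho, gave 3.63, 3.96 and 3.50. Pvalb, parvalbumin, a marker of the early part of this segment, was not well above background on any array. Replicate 2 was the highest animal in all 8 detected genes, against 30.7% of all detected named genes, and in 7 with quantile scaling. Macula densa cells, which sense chloride, were scarcely seen. Their gene Nos1 was not well above background on any array. Ptgs2, cyclooxygenase 2, gave 0.0291, 0.0267 and 0.0218. Avpr1a, a vasopressin receptor, gave 0.374, 0.542 and 0.379.

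All 13 genes of the connecting tubule and principal cells were detected. Klk1, the kallikrein released into the urine by the connecting tubule, gave 175, 218 and 156 and was the last of the 100 brightest. Aqp2, the vasopressin-regulated water channel, gave 101.9, 117.2 and 98.01. Hsd11b2, which protects the mineralocorticoid receptor from glucocorticoids, gave 48.2, 53.4 and 56.2. Aqp3, the basolateral water channel, gave 33.6, 33.0 and 25.0. Replicate 2 was the highest animal in 7 of the 13, against 30.7% of all detected genes, and no gene was 2-fold apart.

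Of the intercalated cell list, 15 of 16 were detected, with a median of 7.88. Atp6v1g3, a subunit of their proton pump, gave 92.0, 102 and 94.6. Slc26a4, pendrin, the chloride-bicarbonate exchanger of type B cells, gave 54.1, 60.8 and 60.3. Foxi1, the factor that specifies these cells, gave 12.4, 12.9 and 8.38. Replicate 2 was the highest animal in 12 of the 15 and replicate 3 in none, against 30.7% and 35.2% of all detected genes.

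Genes of the medulla and thin limb were detected in 9 of 10, with a median of 1.19, near the 1.13 over all detected named genes. At or above the 75th percentile were 5 of the 9, against 6314 of 12117 over all genes with a level. Cryab, a small heat shock protein, gave 9.81, 10.5 and 13.0. Slc5a3, the inositol carrier, gave 4.20, 5.48 and 5.04. Akr1b1, aldose reductase, gave 0.963, 1.21 and 1.70. Sptssb was not well above background on any array. How much medulla the pieces of cortex held was not tested.

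**Figure D2:**
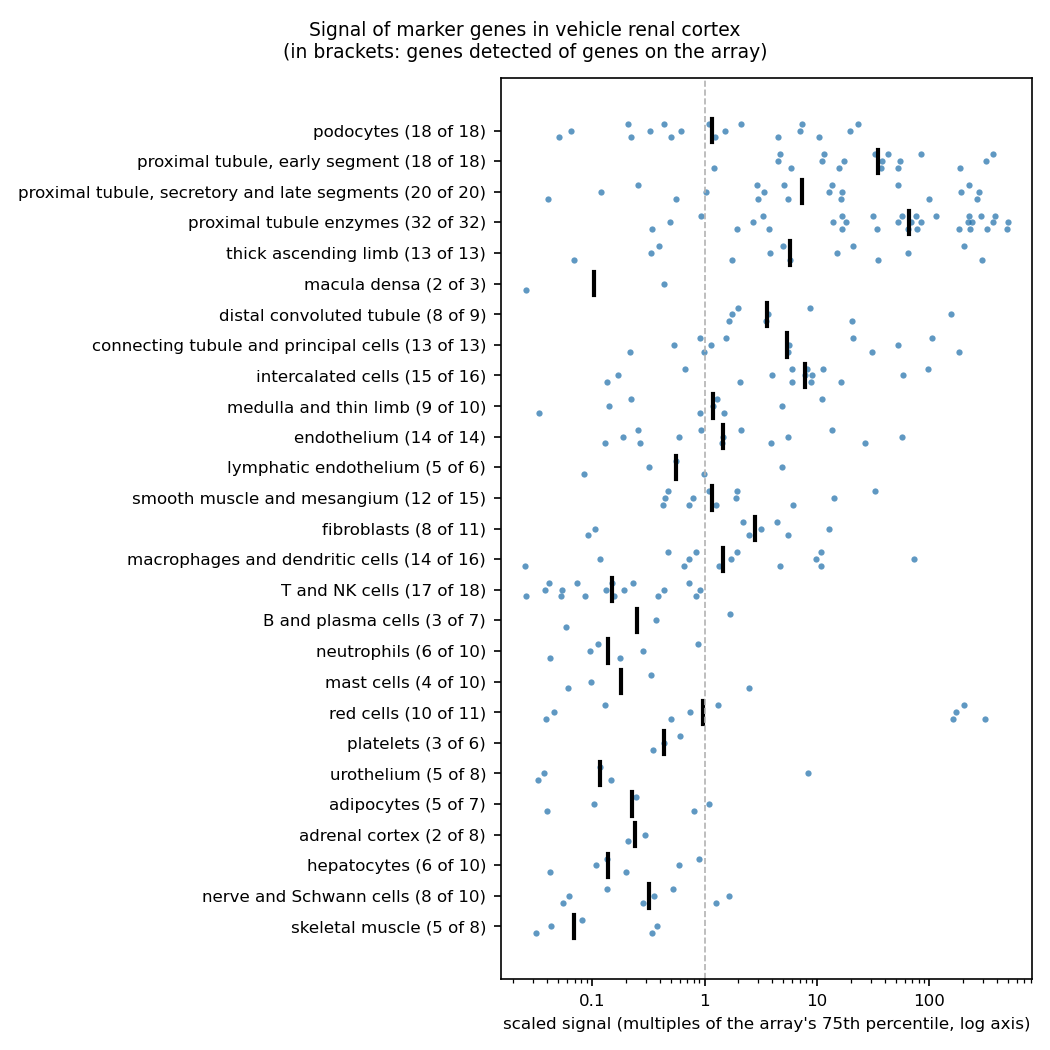
Mean scaled signal over the 3 animals (log axis) of each detected gene of the cell type lists, 1 point per gene, with a bar at the median of the list and a dashed line at 1. Brackets give genes detected of genes on the array. Proximal tubule enzymes centre on 66.3 and T and NK cell genes on 0.15.

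Podocyte genes were detected in full, 18 of 18, at a median of 1.16, near that of all genes. Podxl, podocalyxin, which keeps the foot processes apart and is also made by endothelium, gave 22.8, 23.6 and 22.9. Actn4, an actin crosslinker, gave 19.8, 19.5 and 19.7. Cdkn1c, a cell cycle inhibitor of mature podocytes, gave 7.38, 6.62 and 8.10. Nes, nestin, was the widest at 4.71, 3.68 and 5.24, and no podocyte gene was 2-fold apart. Bulk levels of this kind cannot tell fewer cells of a type from less RNA per cell, here or in any list.

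Endothelium was the steadiest of the cell lists, with a median range of 1.09-fold over 14 genes, all detected, and a median level of 1.44. Plvap, of the diaphragms of peritubular capillaries, gave 59.0, 54.8 and 57.9, but 1.08, 0.973 and 1.04 on its second probe. Kdr, a VEGF receptor, gave 27.7, 26.2 and 26.3. Plat, tissue plasminogen activator, gave 14.0, 12.9 and 14.2. Pecam1, the junction protein CD31, gave 5.61, 5.40 and 5.68, but 0.119, 0.137 and 0.131 on its second probe. Lymphatic endothelium was dimmer, with Lyve1, its hyaluronan receptor, at 0.677, 0.496 and 0.504. Prox1, the factor that defines those vessels, was not well above background on any array.

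Among smooth muscle and mesangial genes, 12 of 15 were detected, 80%, near the 77.5% of all named genes, with a median of 1.17. Notch3, a receptor of mural cells, gave 16.04, 12.8 and 14.0, but 0.155, 0.157 and 0.171 on its second probe. Smtn, smoothelin, gave 5.85, 6.49 and 5.83. Akr1b7, Cnn1 and Lmod1 were not well above background on any array. Fibroblast genes were detected in 8 of 11, 72.7%, led by the collagen gene Col1a2 at 14.9, 12.0 and 11.5. Dcn, decorin, gave 5.38, 5.90 and 5.43. Epo, the hormone that cortical fibroblasts make under low oxygen, was not well above background on any array, nor was Lum.

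Of the immune cell lists, macrophages and dendritic cells had the highest median, 1.47, with 14 of 16 genes detected. Lyz2, lysozyme, gave 68.4, 66.9 and 82.3. C1qb, of the complement complex that resident macrophages make, gave 9.13, 12.3 and 11.1. Tyrobp, an adaptor of myeloid receptors, gave 10.6, 10.8 and 10.9. Aif1, the macrophage protein IBA1, gave 9.21, 10.6 and 9.43. Fcgr3a, an Fc receptor, was the widest at 0.942, 1.88 and 2.35. Cd163, the haemoglobin scavenger receptor, was not well above background on any array.

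The lymphocyte and granulocyte lists had low medians, from 0.139 for neutrophils to 0.249 for B and plasma cells, against 1.13 over all detected named genes. All 17 detected of the 18 genes of T and NK cells had a mean below the 75th percentile, with a median of 0.15. Cd3d, of the T cell receptor complex, gave 0.757, 0.940 and 1.03. Klrk1, an activating receptor of NK cells, gave 0.799, 0.742 and 0.956. B and plasma cells had 3 of 7 genes detected. Pax5, the brightest of them, gave 2.04, 1.60 and 1.45. Fcrla, an Fc receptor-like protein of B cells, stood out in replicate 1, at 0.826, 0.153 and 0.122. Neutrophils had 6 of 10 genes detected, none with a mean at or above 1. Np4, the brightest of that list, gave 0.874, 0.877 and 0.888, and S100a8, a calprotectin subunit, gave 0.0987, 0.137 and 0.105. Mast cells had 4 of 10, with the tryptase Tpsab1 at 2.41, 2.57 and 2.46, while Cma1, Fcer1a and Mcpt10 were not well above background on any array. Platelet genes were detected in 3 of 6, with Pf4 at 0.494, 0.774 and 0.553.

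Red cell genes included bright globins. Hba-a1 gave 276, 326 and 339. Hba-a3 gave 177, 206 and 227. Hbb-b1 gave 153, 178 and 183. These are alpha and beta chains of haemoglobin, whose probes can share targets, and Hbb gave 147, 165 and 171. Replicate 1 was the lowest animal and replicate 3 the highest for each of the 4. Over the list, replicate 3 was the highest in 9 of 10 detected genes, against 35.2% of all detected genes. The list held 0.695%, 0.797% and 0.845% of the summed signal, and its part in other levels was not tested.

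Markers of neighbouring or foreign tissues had low medians, from 0.0693 for skeletal muscle to 0.320 for nerve and Schwann cells. Of all named genes 77.5% were detected, so a list detected near that share does not show that its cells were present. Of adrenal cortex genes 2 of 8 were detected, and Cyp11b1 and Cyp11b2, the enzymes that finish steroid synthesis there, were not well above background on any array. Of hepatocyte genes 6 of 10 were detected, with Alb, albumin, at 0.367, 0.126 and 0.103. Urothelial genes were detected in 5 of 8, with Upk3a, a uroplakin, at 0.0382, 0.0444 and 0.0305. Upk2, Krt20 and Psca were not well above background. Tp63, a factor of basal epithelium, stood above its list at 7.47, 8.42 and 8.92. Adipocyte genes were detected in 5 of 7, with Adipoq, adiponectin, at 0.994, 1.19 and 1.11. Skeletal muscle had 5 of 8, with Tnni2, a fast-fibre troponin, the brightest at 0.415, 0.224 and 0.484. Nerve and Schwann cell genes were detected in 8 of 10, 80%. Th, tyrosine hydroxylase of sympathetic nerves, gave 1.24, 1.21 and 1.31. On a second, far dimmer probe Th gave 0.0257, 0.0196 and 0.0209, close to the lowest level of any detected gene, 0.0186.

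Of 14 genes of tubular injury, 13 were detected, with a median of 2.11. Havcr1, the injury marker KIM-1, gave 0.0172, 0.02002 and 0.02003, close to the lowest geometric mean of any detected gene, 0.0186, and is named after its values were seen. Cdkn1a, the cell cycle inhibitor p21, gave 29.3, 26.9 and 29.8. A second, dimmer Cdkn1a probe gave 1.66, 4.05 and 1.95, a 2.43-fold range with another highest animal. Krt18, a keratin, gave 9.73, 12.1 and 12.4. Spp1, osteopontin, gave 5.88, 8.07 and 8.67. Clu, clusterin, a secreted chaperone, was the only member at least 2-fold apart on its brightest probe, at 12.0, 19.4 and 6.68. Its second probe gave 12.1, 19.1 and 6.63, highest in replicate 2 and lowest in replicate 3 as well.

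Cell cycle genes were dim, with a median of 0.469 over 20 of 21 detected. Kif11, a spindle motor, gave 6.32, 5.38 and 5.10. Pcna, the replication clamp, gave 3.38, 3.14 and 3.11. Cdk1, the kinase of mitotic entry, gave 1.54, 1.13 and 1.23. Replicate 1 was the highest animal in 17 of the 20, against 34.1% of all detected genes, and no gene was 2-fold apart.

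All 20 transcription factors of nephron segments were detected, with a median of 2.26. Tfcp2l1, of the distal nephron and collecting duct, gave 38.2, 38.7 and 33.1, but 0.279, 0.307 and 0.221 on its second probe. Nr1h4, the bile acid receptor FXR, gave 31.9, 30.4 and 27.6. Hnf4a, which the proximal tubule needs to mature, gave 12.9, 12.9 and 12.2. Of hormone and autacoid receptors, 28 of 30 were detected. Pth1r, the parathyroid hormone receptor, gave 32.5, 31.5 and 26.7. Casr, the calcium-sensing receptor, gave 13.0, 16.2 and 16.4. Agtr1a, an angiotensin II receptor, gave 6.39, 6.60 and 6.75. Agtr2 and Drd1 were not well above background on any array.

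Between the 3 animals, the highest exceeded the lowest by a median of 1.13-fold over the 12117 detected genes whose own brightest probe was detected. At least 2-fold apart were 379 genes, 3.13%, of which 73 were at least 4-fold and 17 at least 8-fold apart. The share was smaller at higher levels: 7.57% of genes under 0.1, 3.50% at 0.1 to 1, 1.74% at 1 to 10 and 1.18% at 10 or more. With normexp background correction, which compresses dim signals, 200 genes were 2-fold apart. Of 143 such genes with a second detected probe, 95 were at least 2-fold apart on it too, and 74.8% had the same highest and lowest animals. Among 5008 genes under 1.25-fold on the brightest probe, 0.579% were 2-fold apart on the second and 34.7% had the same highest and lowest animals. Both probes share the array and the RNA of an animal. Replicate 3 was the highest animal in 175 of the 379 genes, against 35.2% of all detected genes, and replicate 1 the lowest in 151, against 31.8%.

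**Figure D3:**
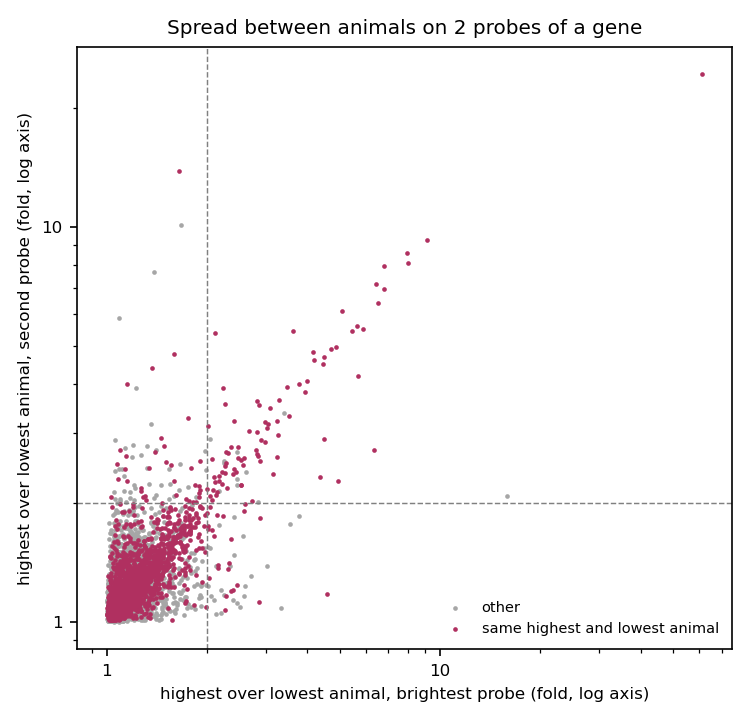
Highest over lowest animal on the second detected probe of a gene against that on its brightest probe (both fold, log axes), 1 point per gene of 6263, with dashed lines at 2-fold. Of the 143 genes past 2-fold on the brightest probe, 95 are past it on the second, and Fam111a lies at the far upper right with 61.2-fold and 24.3-fold.

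Most genes of the antigen presentation list were highest in the same animal: replicate 3 was the highest in 11 of the 12 detected, against 35.2% of all genes. The median range was 1.50-fold. RT1-Db1, a class II chain, gave 3.17, 11.0 and 15.7. Its second probe gave 4.75, 7.59 and 10.8, in the same order. Cd74, the class II invariant chain, gave 35.2, 36.6 and 46.0. Tap2, of the peptide transporter, gave 1.61, 2.56 and 4.56. RT1-DMb, which loads peptides, gave 2.65, 3.54 and 5.32. These last 2 are named because, with RT1-Db1, they are the 3 of 12 at least 2-fold apart, against 3.13% of all genes. B2m, the light chain of class I, did not share the order, at 190, 182 and 187. The class I gene RT1-CE10, which is not among the 12 and is given below with the widest genes, was lowest in replicate 3. RT1 genes have close copies, and which of them a probe reads is uncertain. Replicate 3 was the highest animal in 4 of the 14 detected macrophage and dendritic cell genes and replicate 2 in 9, and Cd163 was not well above background. That list held 0.0993%, 0.104% and 0.116% of the summed signal in the 3 animals, and its part in these levels was not tested.

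Interferon genes were detected in 22 of 23. Replicate 3 was the highest animal in 10 of the 22, against 35.2% of all detected genes. Replicate 2 was the lowest in 14 of the 22, against 35.1%, or in 9 with the median over the probes of a gene. Mx2, an antiviral GTPase, gave 73.0, 68.1 and 69.7. On a second, far dimmer probe Mx2 gave 0.1175, 0.120 and 0.142, with another highest animal, so its level is uncertain. Oas1b, an oligoadenylate synthetase, gave 53.8, 57.1 and 60.03. Rsad2, viperin, was the widest at 2.15, 1.38 and 3.08.

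**Figure D4:**
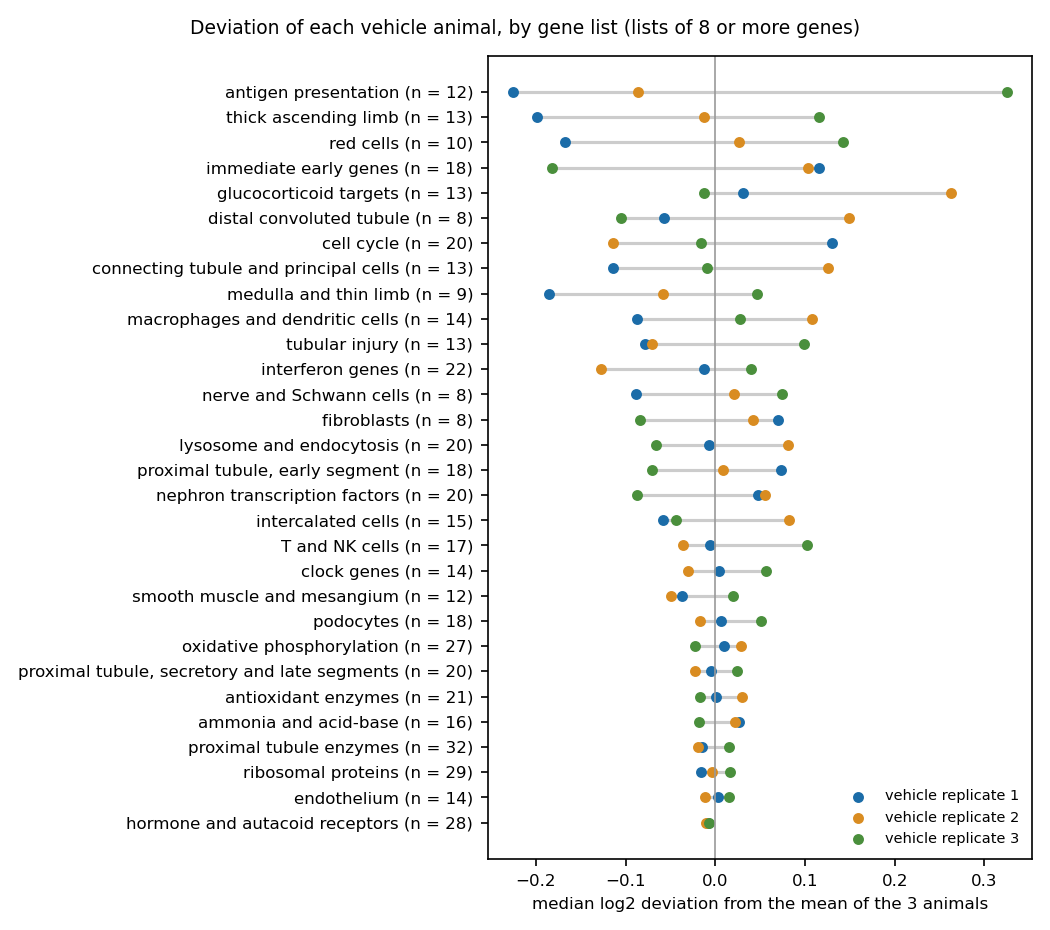
Median over the genes of a list of the log2 deviation of each animal from the mean of the 3 animals, for lists with at least 8 genes, the widest at the top. Antigen presentation, the thick ascending limb and red cells spread the most, while ribosomal, endothelial and receptor genes sit near 0.

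Among lists with at least 10 measured genes, glucocorticoid targets had the largest share at least 2-fold apart. This was 6 of the 13 with a level, against 3.13% of all genes. Members and lists were chosen with earlier results of these data known, so this order of lists is a description only. Fkbp5, which binds the receptor complex, gave 2.14, 6.46 and 9.50. The second Fkbp5 probe gave 0.433, 1.22 and 1.94, in the same order. Sgk1, a kinase that raises sodium transport and is also on the distal convoluted tubule list, gave 7.74, 13.3 and 5.10, highest in replicate 2 and lowest in replicate 3. Ddit4, an inhibitor of growth signalling, gave 5.23, 8.86 and 2.71. Angptl4, an inhibitor of lipoprotein lipase, gave 20.6, 25.0 and 12.2. Pdk4, which holds back pyruvate oxidation, gave 0.291, 0.382 and 0.124. These 3 followed the order of Sgk1 and not that of Fkbp5. The sixth, Per1, is given with the clock genes, and Ddit4 and Pdk4 are named to complete the count.

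Immediate early genes were detected in 18 of 21, with a median range of 1.66-fold and 5 of the 18 at least 2-fold apart, against 3.13% of all genes. Jun, a subunit of the factor AP-1, gave 9.30, 7.98 and 6.89. Its relative Junb gave 6.37, 5.04 and 8.33. Ccn2, connective tissue growth factor, gave 4.43, 7.91 and 3.86. Zfp36, which destabilises messenger RNA, gave 0.233, 0.293 and 0.0982. Replicate 3 was the lowest animal in 11 of the 18, against 33.1% of all detected genes. Of clock genes, 14 of 15 were detected and 2 of the 14 were at least 2-fold apart, against 3.13% of all genes. Per1, a repressor of the clock, gave 0.285, 0.462 and 0.106. Nr1d1, the repressor REV-ERB alpha, gave 0.172, 0.167 and 0.505, and is named to complete the count. Dbp, an output of the clock, gave 9.53, 9.03 and 11.6. Bmal1, its activator, gave 3.05, 3.10 and 2.56.

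Counts of the highest or lowest animal given here for the lists changed by at most 1 gene under quantile or median scaling. Median scaling only exchanges 1 constant per array for another and could hardly alter them. With the median over the probes of a gene, replicate 3 was the highest in 7 of 10 red cell genes and replicate 2 in 17 of 20 lysosome genes. With normexp background, replicate 1 was the highest in 15 of 20 cell cycle genes.

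The 20 detected genes with the widest ranges were mostly dim, 14 with a mean below the 75th percentile, and the narrowest of them was 7.97-fold apart. Fam111a, a protease that acts at replication forks, headed them at 1.41, 1.53 and 0.0249. Its second probe gave 0.623, 0.637 and 0.0262, so both probes were low in replicate 3 alone. Slpi, a secreted protease inhibitor, was the reverse at 0.0378, 0.0598 and 1.73. Ephx2, soluble epoxide hydrolase, gave 4.17, 0.407 and 6.67, low in replicate 2 only. Tac4, a tachykinin precursor, gave 2.13, 0.135 and 2.14. Its second probe gave 0.270, 0.129 and 0.144, with another highest animal.

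Several of the 20 had replicate 1 lowest and replicate 3 highest, Slc7a13 and Slco1a1 among them. Rbp4, the plasma carrier of retinol, gave 1.23, 2.07 and 9.86. Rbp4 gave 0.828, 1.22 and 6.70 on its second probe, in the same order. Gc, the carrier of vitamin D, gave 0.0356, 0.194 and 0.419. Hnmt, which inactivates histamine, gave 0.135, 0.360 and 1.30. Anxa13, an annexin of epithelia, gave 0.0215, 0.0638 and 0.177. Other orders were seen as well. Tgfb2, a growth factor, gave 0.523, 0.0716 and 0.0571, high in replicate 1 alone. Its second probe gave 0.459, 0.0678 and 0.0496. Depp1, a target of FOXO factors, gave 4.45, 5.58 and 0.629, low in replicate 3. Akr1c2, an aldo-keto reductase, gave 0.713, 0.400 and 0.0205. RT1-CE10, a class I gene with close copies, gave 1.34, 0.737 and 0.0441. Gh1, growth hormone, gave 0.0624, 0.604 and 0.0791. The others were the odorant receptors Or5b123b and Or13p4, the Ly6 family genes Ly6g6e and Ly6g6c, and Gpr35.

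**Figure D5:**
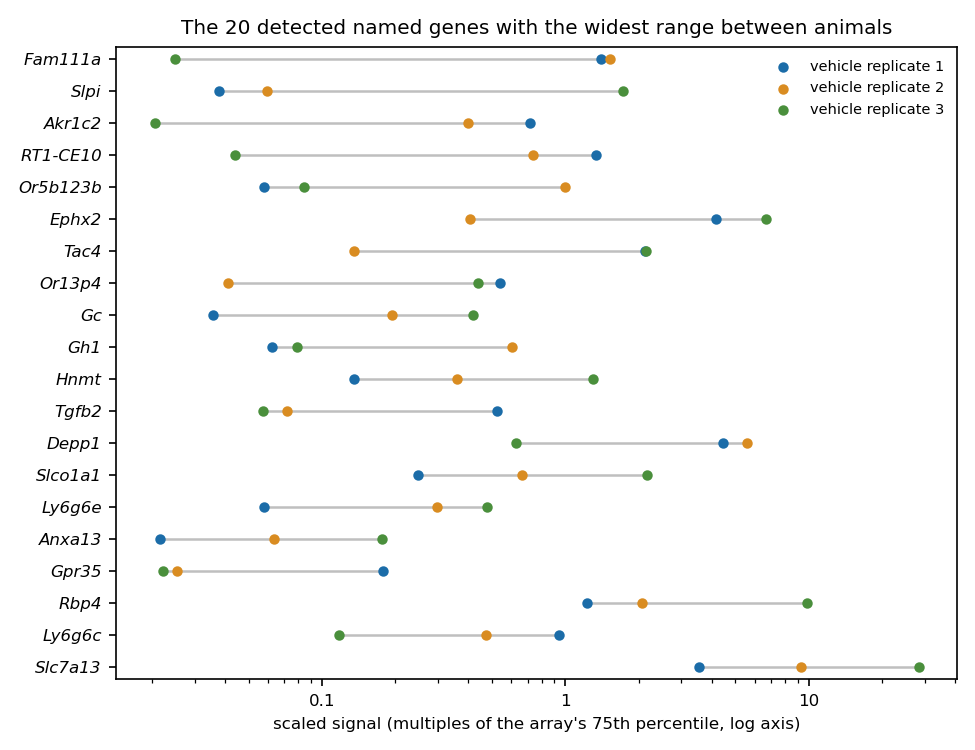
Scaled signal (log axis) of the 20 detected named genes with the widest range between animals, 1 point per vehicle animal. Replicate 3 is the highest in 10 and the lowest in 7 of them, and Fam111a in replicate 3 lies at 0.0249 against 1.41 and 1.53.

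Of the 20 widest genes, 5 had a second detected probe. All 5 were at least 2-fold apart on it, and 4 had the same highest and lowest animals, Tac4 being the exception. For 10 of the 20 the array held a single named probe.

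Few bright genes were so variable: 23 of the 1946 genes at 10 or more were at least 2-fold apart, 1.18%. The 3 given here are named after their values were seen. Apoe, the lipid carrier, gave 104, 149 and 67.8. Sult1c2, a sulfotransferase, gave 113, 47.9 and 99.1. Cyp4a3, a relative of Cyp4a2 whose probes can share targets, gave 212, 229 and 104. Replicate 3 was the lowest animal for Apoe and Cyp4a3, and replicate 2 for Sult1c2.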

How the data were processed

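Total RNA from the renal cortex of 3 vehicle rats was hybridised as Cy3-labelled cRNA, 1 array per animal. The deposited scanner intensity of each spot had been background-subtracted by the scanner software, per the file headers (Agilent Feature Extraction, 10.7.1.1 there and 10.7 per the submitters' processing notes). Processed intensity was floored at 1, divided by the 75th percentile over the 61537 non-control probes and put on a log2 scale for ratios between animals. Outlier-flagged probes (4) were left out. Detection used the well-above-background flag. Probe accessions were matched to RefSeq symbols, which named 28206 probes (45.8%). The brightest probe stood for a gene; in 5 detected genes it was not itself detected, and these had no level (Zbtb16 is the one on a list).

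Values were computed in Python 3.11.15 with pandas 2.3.3, and quantile and normexp values (offset 50) with limma 3.58.1 in R 4.3.3. The method was tested on simulated data. The series value table holds the same deposited intensities on a linear scale, divided by 1 constant per array, with column medians of 0.105; its other 3 value columns were not used.

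Names in the text were drawn from the 30 brightest genes, up to 4 of the brightest, the widest and up to 3 undetected genes of each of 41 lists, and the 20 widest genes. Others are said to be named later, and some genes are not reported here. Members and lists were chosen with earlier results of these data known. The design text calls the animals biological replicates. No test was run. Settings tried were scaling, background correction, probe choice, detection rule and leaving out each animal.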

Additional observations from a re-analysis of the deposited data

How the results depend on the processing

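The count of named genes at least 2-fold apart between animals, 379, changed with how dim probes were treated and with probe choice. It was 200 with normexp background on the median signals (198 of them among the 379), 457 with the median over the probes of a gene (307 of them among the 379), 507 with a probe above background on at least 2 arrays, 707 with a probe above background on at least 1 array, 873 with the positive and significant flag, 1426 with no filter and 99 with a mean level at or above the 75th percentile. It lay between 170 (without replicate 3) and 225 (without replicate 2) when 1 animal was left out, with 214 without replicate 1. The brightest 100 named genes held 28.0% of the signal with the median over the probes of a gene, and 67 of the 100 were then shared. Quantile scaling gave 374 such genes, median scaling 378 and the series values 379, and each kept all 100 brightest genes. Median scaling moves every level by 1 constant. Normexp on median signals was chosen after seeing the data; the planned version on mean signals was not run, since the files used here hold no such column. No paired analysis was possible because a single group was described and no test was run. No probe was saturated, and at the low end the background limits which levels can be read.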
